A study of Rattus norvegicus with 18 samples.

Results

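Inflammatory cytokines, chemokines, the inducible prostaglandin synthase and the subunits of calprotectin were examined across 18 intestinal RNA-seq libraries from rats of the Sprague-Dawley stock, which is outbred, labelled wild type. The 10 genes were given by Ensembl identifier with an expected chromosome, and 9 of them were among the 30562 genes of the count table and lay on that chromosome. Those 9 were Il1b, Il6, Il10, Ccl2, Cxcl1, Cxcl2, Ptgs2, S100a8 and S100a9. The identifier given for the tenth, Nos2 (inducible nitric oxide synthase), was not analysed here. The table holds identifiers without symbols, so the gene names rest on the identifier and the chromosome.

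There were 6 control libraries, 6 libraries of rats given one 10 Gy X-ray dose (irradiated), and 6 of rats given that dose and afterwards Changbing Formula (irradiated plus formula). All were housed specific pathogen-free. The irradiated group is described as a model of radiation enteritis. The labels give neither the intestinal segment nor sex, age, interval after irradiation, or the dose and route of the formula. Every free-text description speaks of untreated rats, against the titles and treatment fields of the 12 libraries from irradiated rats. Groups here follow the titles. Labels imply, without stating it, that each library is a separate rat, so p-values measure the spread between libraries.

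Il1b and Il6 encode cytokines that activated myeloid and stromal cells release early in tissue injury, while Il10 encodes a cytokine that restrains such responses and is needed for tolerance to gut microbes. Chemokines draw in leukocytes: Ccl2 attracts monocytes, and Cxcl1 and Cxcl2 attract neutrophils through the receptor CXCR2. S100a8 and S100a9 proteins pair to form calprotectin, an abundant cytosolic protein of neutrophils whose level in stool is used as a marker of intestinal inflammation.

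None of the 8 genes that could be fitted passed the test for a difference between groups, adjusted over all genes, in any of the 3 comparisons. The highest values were instead found in single libraries, and different genes peaked in different libraries. Irradiated plus formula library 2 held the highest level of 6 of the 9 genes, irradiated library 4 that of Il1b, control library 2 that of Il10 and control library 5 that of S100a8. Cxcl1 had fitted values above control in both irradiated groups, at no more than 28 reads per library, and passed only before adjustment.

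Library totals lay between 33598572 and 48398184 counts. Between 66.9% and 74.6% of counts below 40 in a library were even numbers, so a read and its mate were largely both counted and small counts stand for fewer fragments than their size. Levels are CPM, counts scaled to the library total after TMM correction for composition, and levels of different genes are compared per kilobase of exon (RPKM). Genes found at 10 CPM or more in 1 library, and at 32 times their 18-library median or more, numbered 266 in irradiated library 4, 244 in control library 2 and 100 in irradiated library 1, against 0 to 29 in each of the others. Mitochondrial genes took from 5.77% of counts, in irradiated library 4, to 39.7%, in irradiated library 5. Tissue and cell type markers were not analysed here, since 0 identifiers matched the gene table. In bulk tissue, fewer cells of a type and less RNA per cell cannot be told apart.

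Promoter windows from 250 bases before to 50 bases after the annotated start are held by the RefSeq table (GRCr8) for 6 of the 9 genes: Il1b, Il6, Cxcl1, Cxcl2, Ptgs2 and S100a9. Il6, Cxcl1 and Cxcl2 are printed because theirs are the windows that matched the NF-kB consensus, the binding motif of the factor family best known for switching on cytokine genes. Capitals mark the match, and each window is written 5′ to 3′ on the strand of its gene, the minus strand in all 3. They lie at chr4:5894526-5894825 for Il6, chr14:17479272-17479571 for Cxcl1 and chr14:17467206-17467505 for Cxcl2.
Il6: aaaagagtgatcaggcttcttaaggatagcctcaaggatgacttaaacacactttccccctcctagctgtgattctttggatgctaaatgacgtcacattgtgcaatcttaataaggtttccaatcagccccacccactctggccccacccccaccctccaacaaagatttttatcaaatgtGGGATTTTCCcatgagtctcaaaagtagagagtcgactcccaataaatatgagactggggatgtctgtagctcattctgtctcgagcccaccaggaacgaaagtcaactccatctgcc
Cxcl1: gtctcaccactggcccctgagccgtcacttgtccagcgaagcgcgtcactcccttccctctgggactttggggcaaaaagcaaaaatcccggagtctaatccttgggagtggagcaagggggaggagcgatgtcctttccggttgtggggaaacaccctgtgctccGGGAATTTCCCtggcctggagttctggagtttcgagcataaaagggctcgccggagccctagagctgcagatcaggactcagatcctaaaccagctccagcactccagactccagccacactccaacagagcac
Cxcl2: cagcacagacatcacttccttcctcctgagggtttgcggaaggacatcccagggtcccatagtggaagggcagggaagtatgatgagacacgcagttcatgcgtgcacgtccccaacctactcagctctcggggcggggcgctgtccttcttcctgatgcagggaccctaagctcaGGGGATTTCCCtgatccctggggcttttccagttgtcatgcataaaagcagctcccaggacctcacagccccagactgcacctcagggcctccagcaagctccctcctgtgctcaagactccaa

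The Il6 match GGGATTTTCC begins at position -68 relative to the start. In Cxcl1, matches on the strand as written at -84 and on the opposite strand at -83 overlap in the run GGGAATTTCCC. In Cxcl2, matches on the strand as written at -74 and on both strands at -73 overlap in the run GGGGATTTCCC. So 3 of 6 windows held the consensus on either strand, against 4.18% of all 33469 promoter windows in the table. The AP-1 motif TGANTCA was in 0 of 6 (7.33% of all), TATAAA in 2 of 6, Il1b and S100a9 (14.2% of all), and the C/EBP motif TTGCNNAA in 4 of 6, Il1b, Il6, Cxcl2 and Ptgs2 (10.6% of all). Both strands were searched, and no match of one motif overlapped a match of another. These are letters in a window, not measured binding sites.

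Per kilobase of exon, Ccl2 had the highest median over the 18 libraries, 4.62 RPKM, followed by Il1b at 2.64, Ptgs2 at 2.46 and S100a9 at 1.29 RPKM. S100a8 (0.325), Cxcl1 (0.278) and Il10 (0.215) were lower, and Il6 (0.0442) and Cxcl2 (0.0418) were the lowest. Each gene's range over libraries overlapped that of its neighbours in this order. In reads, Ptgs2 ran from 141 to 1754 per library, Il1b from 68 to 1503 and Ccl2 from 37 to 1506, while Cxcl2 never exceeded 8. Libraries without a read numbered 8 for Cxcl2, 5 for Il6, 4 for S100a8 and 1 for Cxcl1. If counts were independent, a count of 0 would allow up to 3 counts, which for Il6 was between 0.0598 and 0.0875 CPM in the libraries concerned. Since a read and its mate were largely both counted, the limits lie above these values.

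**Figure D1:**
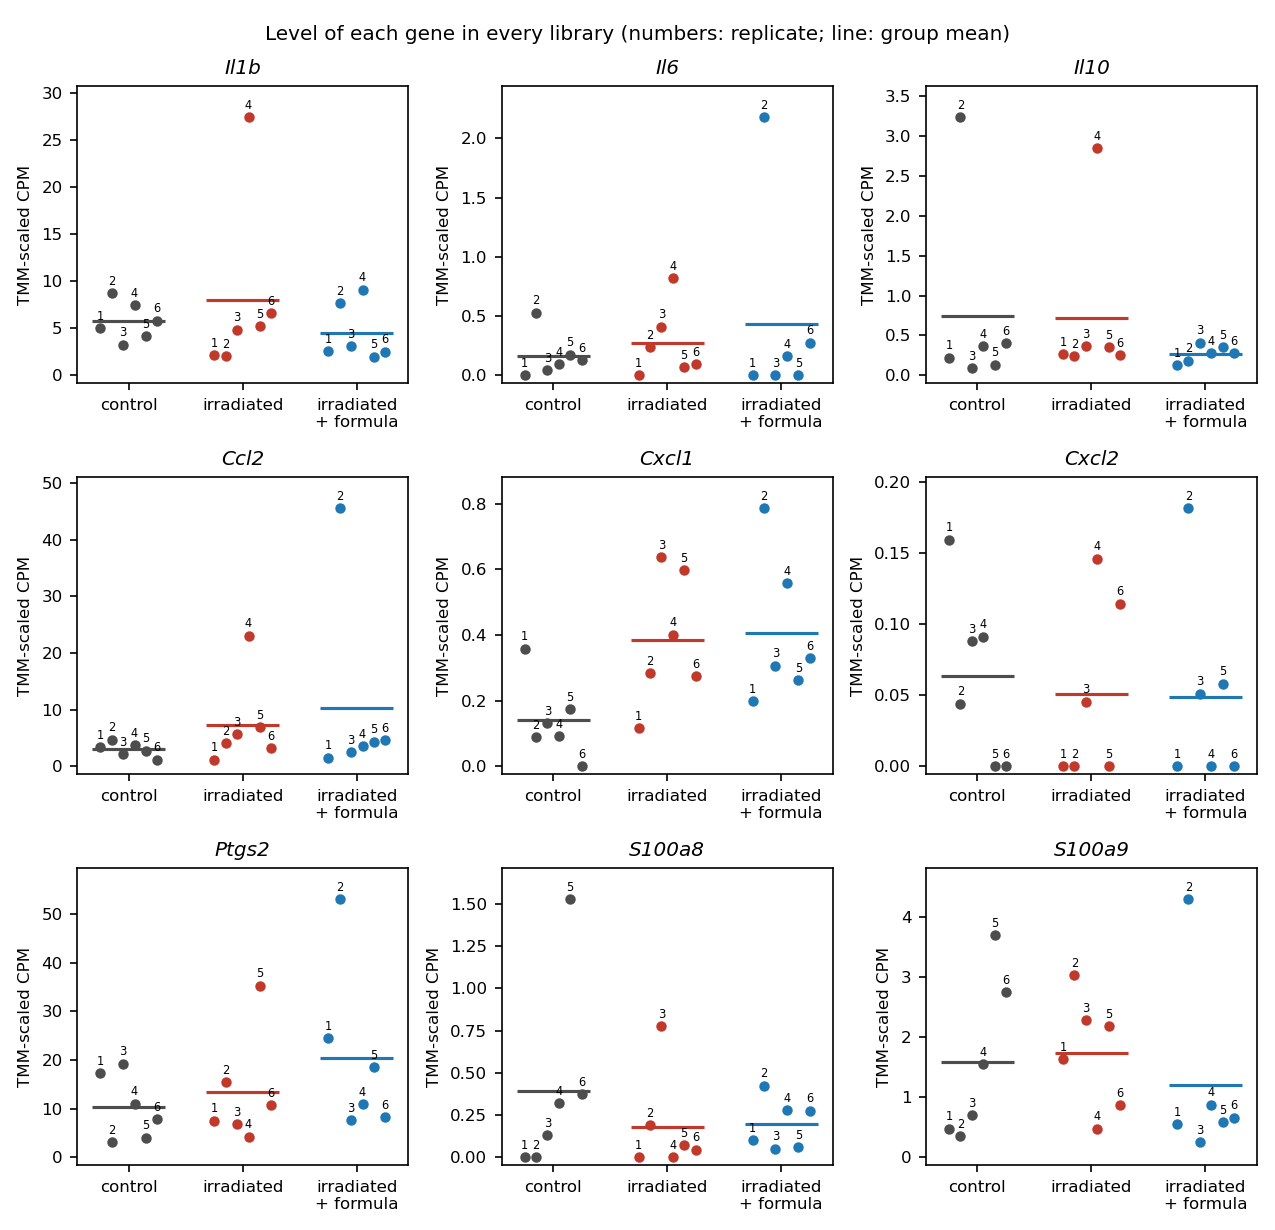
Level of each gene in TMM-scaled CPM (vertical axis, one scale per gene) in each of the 18 libraries, with points numbered by replicate and lines at the group mean. Most panels hold 1 or 2 points far above the rest: irradiated library 4 for Il1b (27.4 CPM), irradiated plus formula library 2 for Ccl2 (45.6 CPM), and control library 2 for Il10 (3.24 CPM).

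Il1b (ENSRNOG00000004649, chr3:116577010-116583415, minus strand, mRatBN7.2) was the cytokine with the highest level per length. In control libraries it ran from 3.24 to 8.69 CPM with a median of 5.40, in irradiated libraries from 2.06 to 27.4 with a median of 5.03, and in irradiated plus formula libraries from 1.98 to 9.11 with a median of 2.82. The group means were 5.72 ± 2.05, 8.04 ± 9.66 and 4.49 ± 3.08 CPM (SD, n = 6). Irradiated library 4 held 56.8% of the Il1b signal of its group, and the other 5 irradiated libraries averaged 4.17 ± 2.0 CPM, within the control range or below it. All groups overlapped. The fitted log2 fold change for irradiated against control was 0.49 (SE 0.58) with that library and -0.46 without it.

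Il6 (ENSRNOG00000010278, chr4:5213394-5219178, minus strand) was close to the detection limit. Control, irradiated and irradiated plus formula medians were 0.108, 0.164 and 0.0797 CPM, and the highest values were 0.529, 0.821 and 2.18 CPM. The last of these, in irradiated plus formula library 2, came from 72 reads and was 83.4% of the group's summed level, while 3 libraries of that group had none. Its fitted log2 fold change for irradiated plus formula against control was 1.41 (SE 1.27), and -0.85 without that library. At this depth the 95% interval of that value ran from -1.09 to 3.90 on the log2 scale.

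Il10 (ENSRNOG00000004647, chr13:42472839-42477313, plus strand) was at or below 0.409 CPM in 16 of the 18 libraries. The control median was 0.292 CPM with a highest value of 3.24 in library 2, and the irradiated median was 0.307 with a highest value of 2.85 in library 4. Irradiated plus formula libraries had a median of 0.277 and none above 0.409 CPM. Leaving out the high library of each, the other 5 control libraries averaged 0.242 ± 0.140 and the other 5 irradiated libraries 0.293 ± 0.0598 CPM, beside 0.270 ± 0.105 in all 6 irradiated plus formula libraries. The fitted log2 fold changes of irradiated plus formula were -1.42 (SE 0.86) against irradiated and -1.45 (SE 0.87) against control. They became -0.12 without irradiated library 4 and 0.17 without control library 2.

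Ccl2 (ENSRNOG00000007159, chr10:67005424-67007226, plus strand), the monocyte attractant, had control values from 1.16 to 4.67 CPM with a median of 3.09. Irradiated libraries ran from 1.17 to 23.1 with a median of 4.89, and irradiated plus formula libraries from 1.5 to 45.6 with a median of 3.94 CPM. Means were 2.98 ± 1.23, 7.36 ± 7.95 and 10.4 ± 17.3 CPM (SD, n = 6). Each of the latter means rested on 1 library: without irradiated library 4 and without irradiated plus formula library 2, the remaining 5 libraries averaged 4.22 ± 2.22 and 3.31 ± 1.30 CPM. The fitted log2 fold change against control was 1.30 (SE 0.80) for irradiated and 1.79 (SE 0.81) for irradiated plus formula. Leaving out these libraries brought the values to 0.50 and 0.15.

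Cxcl1 (ENSRNOG00000002802, chr14:17193365-17195215, minus strand), a neutrophil attractant, was detected at 0 to 18 reads in control libraries, 4 to 28 in irradiated and 8 to 28 in irradiated plus formula libraries. Control values ran from 0 to 0.359 CPM with a median of 0.112, irradiated values from 0.117 to 0.638 with a median of 0.343, and irradiated plus formula values from 0.199 to 0.787 with a median of 0.319. Of the control libraries 5 lay at or below 0.175 CPM, under every irradiated plus formula library and 5 of the 6 irradiated ones. Control library 1 lay inside the range of both other groups, so the groups overlapped. Means were 0.141 ± 0.121, 0.385 ± 0.202 and 0.407 ± 0.223 CPM (SD, n = 6). The fitted level was 2.65-fold the control level in irradiated libraries (95% interval 1.17 to 6.0) and 2.80-fold in irradiated plus formula libraries (1.24 to 6.35). In edgeR's quasi-likelihood test the unadjusted p was 0.0315 and 0.0242, and the Benjamini-Hochberg adjusted p was 0.998 and 0.845.

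The Cxcl1 difference kept its direction with each library left out in turn. The log2 fold change stayed between 1.17 and 1.92 for irradiated and between 1.20 and 2.01 for irradiated plus formula against control. Both comparisons share the 6 control libraries, so they are not independent of each other. Among the alternatives that gave an adjusted p the lowest was 0.402 and 0.230. For irradiated plus formula against control, DESeq2 gave Cxcl1 an unadjusted p of 0.00874 and no adjusted p, while limma-voom gave an unadjusted p of 0.0507. In irradiated against control, edgeR's unadjusted p rose to 0.0580 with the replicate block and to 0.0604 without control library 2. The call before adjustment thus did not hold under every alternative. Irradiated plus formula against irradiated gave a log2 fold change of 0.08 with a 95% interval from -1.06 to 1.22.

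Cxcl2 (ENSRNOG00000002792, chr14:17181062-17183075, minus strand), a paralogue of Cxcl1, lies 10289 bases from Cxcl1 on the same strand with 0 annotated genes between them. It had 0 to 8 reads per library and failed the filter on low counts. Mean levels in control, irradiated and irradiated plus formula rats were 0.0638 ± 0.0617, 0.0510 ± 0.0646 and 0.0485 ± 0.0706 CPM (SD, n = 6). On the log2(CPM + 0.5) scale the groups differed by -0.03 for irradiated against control (two-sided exact permutation test over all arrangements of the 12 libraries, p = 0.784), by -0.01 for irradiated plus formula against irradiated (exact p = 1.0) and by -0.04 against control (exact p = 0.643). Every value lay below the offset of 0.5, which holds these differences near 0. Without the filter, edgeR gave log2 fold changes of -0.29 (SE 1.20), -0.14 (SE 1.19) and -0.43 (SE 1.21) in the same order. Cxcl1 was above Cxcl2 per length in 17 of 18 libraries.

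Ptgs2 (ENSRNOG00000002525, chr13:62163932-62172188, plus strand) encodes cyclooxygenase 2, which starts prostaglandin synthesis and is induced in injured gut. Control libraries ran from 3.11 to 19.3 CPM with a median of 9.40, irradiated from 4.25 to 35.3 with a median of 9.09, and irradiated plus formula from 7.60 to 53.1 with a median of 14.7. The highest values were in irradiated library 5 and irradiated plus formula library 2, and all groups overlapped. Means were 10.4 ± 6.74, 13.3 ± 11.4 and 20.5 ± 17.3 CPM (SD, n = 6). Fitted log2 fold changes were 0.36 (SE 0.59) for irradiated against control, 0.62 (SE 0.59) for irradiated plus formula against irradiated and 0.97 (SE 0.59) against control. They were -0.16 without irradiated library 5, and 0.07 and 0.42 without irradiated plus formula library 2.

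S100a9 (ENSRNOG00000011483, chr2:176190361-176193230, minus strand) ran from 0.353 to 3.69 CPM in control libraries with a median of 1.13, from 0.474 to 3.03 in irradiated with a median of 1.91, and from 0.256 to 4.30 in irradiated plus formula with a median of 0.621. In the last group, library 2 held 59.5% of the signal and the other 5 lay between 0.256 and 0.877 CPM. The fitted log2 fold change for irradiated plus formula was -0.54 (SE 0.70) against irradiated and -0.40 (SE 0.70) against control. With all libraries edgeR's unadjusted p was 0.456 and 0.576. Without irradiated plus formula library 2, edgeR gave -1.57 (unadjusted p 0.0234, adjusted p 0.836) and -1.43 (unadjusted p 0.0352, adjusted p 0.760), so S100a9 passed only before adjustment. That library held the highest S100a9 value of its group, while the highest libraries of the other groups were kept. In that fit 831 and 1039 of all 16820 genes tested had an unadjusted p below 0.05 in these comparisons. With all libraries, limma-voom gave -1.37 against irradiated (unadjusted p 0.0265, adjusted p 0.884) and -0.58 against control (unadjusted p 0.276, adjusted p 0.537). In limma-voom, 860 of 16593 genes had an unadjusted p below 0.05 against irradiated. The adjusted p of S100a9 over all alternatives was at least 0.772 and at least 0.475.

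S100a8 (ENSRNOG00000011557, chr2:176167124-176167643, plus strand) lies 22717 bases from S100a9, on the opposite strand with 1 annotated gene between them. Control, irradiated and irradiated plus formula medians were 0.226, 0.0580 and 0.188 CPM. The highest values were 1.53 in control library 5, 0.775 in irradiated library 3 and 0.424 CPM in irradiated plus formula library 2. The control library held 64.9% and the irradiated library 71.7% of its group's summed level. Per length, S100a9 was above S100a8 in 18 of 18 libraries, at means of 2.24 and 0.720 RPKM. Irradiated against control gave a log2 fold change of -1.10 (SE 1.16) for S100a8, which was 0.20 without control library 5 and -2.64 without irradiated library 3.

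For irradiated against control, 0 of the 8 fitted genes passed in edgeR's quasi-likelihood test (adjusted p 0.998 for each), and 0.0% of the 16593 genes tested did. At an unadjusted p below 0.05, 1 of 8 did, Cxcl1, against 1.93% of all genes in either direction and 0.651% on the higher side, and 0 passed after adjustment with limma-voom or with DESeq2, which gave no p for Il10. Fitted values were above 0 for 6 and below 0 for 2, beside 51.3% of all genes tested above 0. Their median was 0.42 on the log2 scale against 0.01 over all genes tested. For irradiated plus formula against irradiated, 0 of 8 passed (adjusted p from 0.770 to 0.979; 0.0% of all genes) and 0 of 8 did at an unadjusted p below 0.05 (5.59% of all genes in either direction, 1.5% on the higher side). Here 5 values were above 0 and 3 below, beside 47.1% of all genes above 0, with a median of 0.10 against -0.02 over all genes.

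For irradiated plus formula against control, 0 of 8 passed in edgeR (adjusted p from 0.845 to 0.938; 0.0121% of all genes). At an unadjusted p below 0.05, 2 of 8 did, both on the higher side, against 5.71% of all genes in either direction and 2.45% on the higher side. These were Ccl2 (edgeR unadjusted p 0.0398, adjusted p 0.865) and Cxcl1 (unadjusted p 0.0242, adjusted p 0.845). Fitted values were above 0 for 4 and below 0 for 4, beside 42.0% of all genes above 0. Their median was 0.31 on the log2 scale against -0.07 over all genes. In no comparison were the 8 values tested as a set. The groups of no gene here were free of overlap in any comparison, against 0.00603%, 0.187% and 0.832% of all genes tested in the order above. The 3 comparisons share their libraries in pairs.

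**Figure D2:**
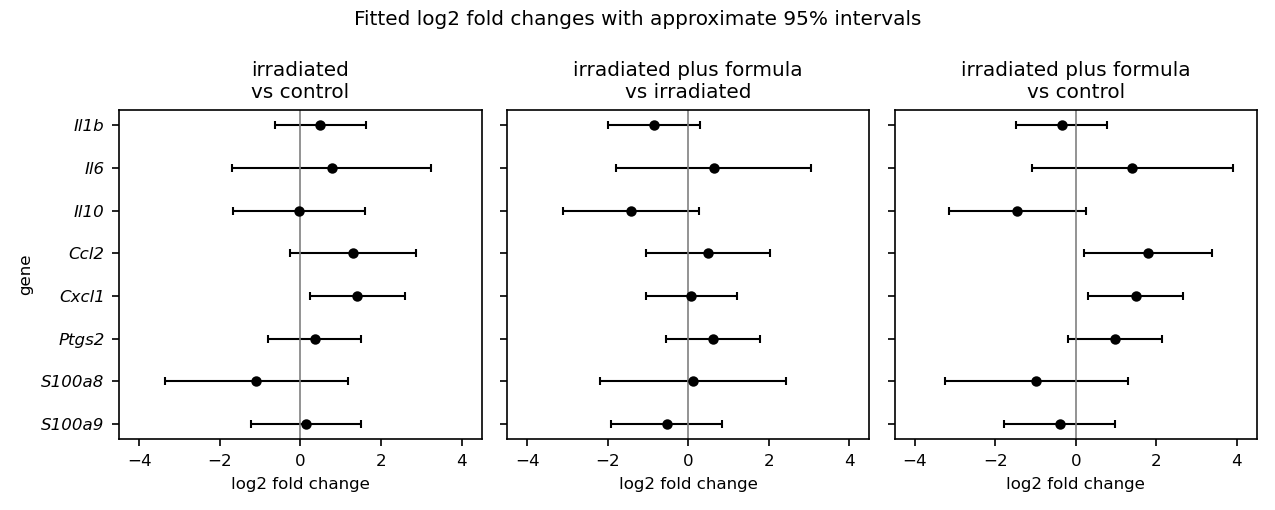
Fitted log2 fold changes (points, horizontal axis) with approximate 95% intervals for the 8 fitted genes in the 3 comparisons. Intervals exclude 0 for Cxcl1 in both comparisons with control and for Ccl2 in irradiated plus formula against control (0.21 to 3.38), without adjustment for the number of genes. Those of Il6 and S100a8 are the widest.

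**Figure D3:**
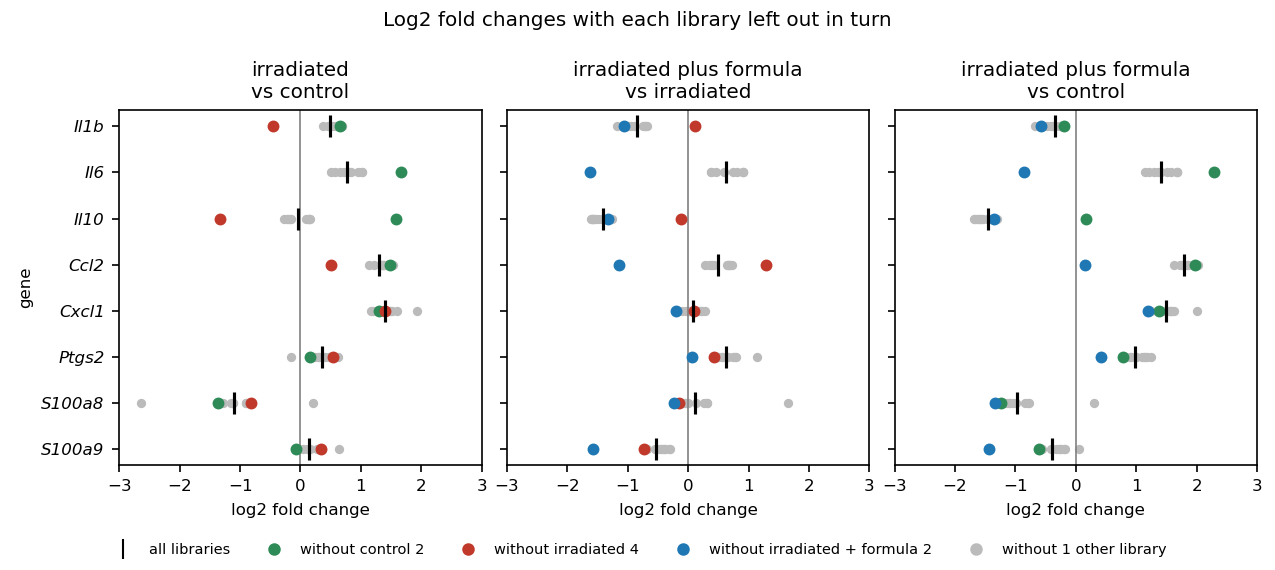
Log2 fold changes (horizontal axis) for the same genes with each library left out in turn; black bars mark the value with all libraries and coloured points the value without control library 2, irradiated library 4 or irradiated plus formula library 2. Il10 moved between -1.33 and 1.58 for irradiated against control, whereas Cxcl1 stayed above 0 in both comparisons with control.

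The genes that were high differed from library to library. Irradiated plus formula library 2 had Il6 at 20.1 times its 18-library median, Ccl2 at 12.6 times and Ptgs2 and S100a9 at 4.93 times each. Cxcl2 was at 4.05 times, S100a8 at 3.66, Cxcl1 at 2.82 and Il1b at 1.56 times. Il10 in that library was below its median, at 0.66 times. The genes peaking there were 6 of 9, beside 7.37% of all genes tested that had their highest level in that library. Of these, Cxcl2 was not among the genes tested, and had 6 reads there against 8 in control library 1 and irradiated library 4. Cxcl1 had 26 reads there against 28 in irradiated library 3 and irradiated plus formula library 4, so both peaks depend on the scaling. Its mitochondrial share was 24.1%, and it had 9 library-specific genes by the definition above.

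Irradiated library 4 had Il10 at 10.3 times its median, Il6 at 7.59, Ccl2 at 6.38 and Il1b at 5.57 times, while Ptgs2 and S100a9 were below theirs and S100a8 had no read. In this library 23.8% of all genes tested had their highest level, its mitochondrial share was the lowest of the 18, and 266 genes were library-specific. Control library 2 had Il10 at 11.7 times and Il6 at 4.89 times the median, with the lowest Ptgs2 of all libraries at 0.29 times. It held 244 library-specific genes and a mitochondrial share of 9.30%. The part of these library-wide differences in the levels of Il1b, Il10, Ccl2 and Il6 was not tested.

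**Figure D4:**
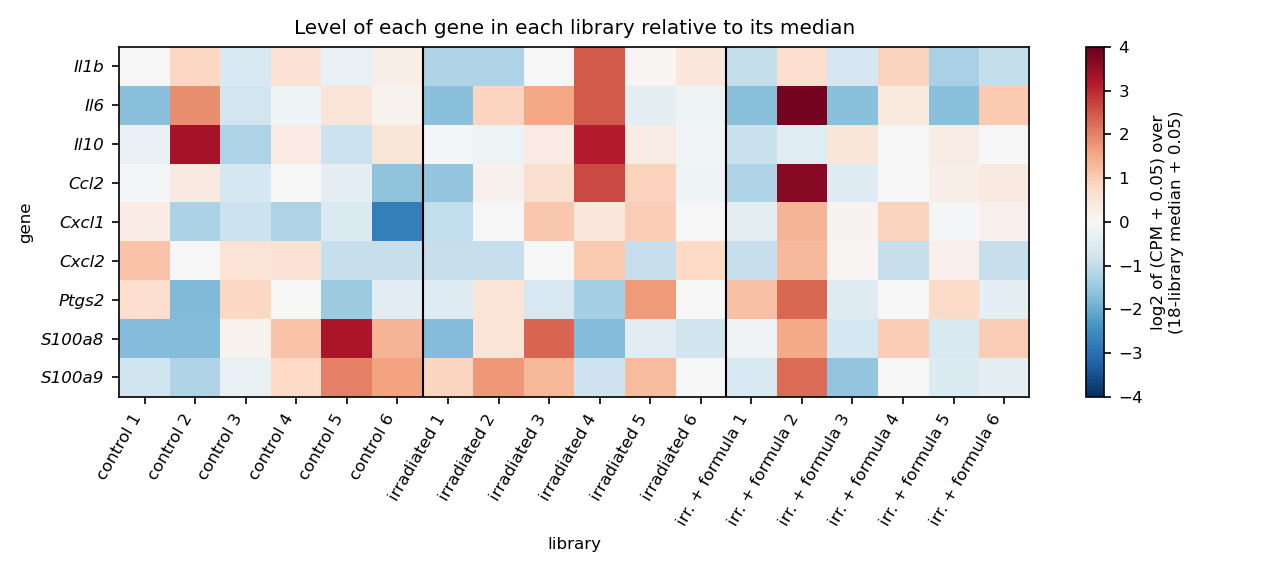
Level of each gene (rows) in each library (columns) as the log2 ratio of CPM + 0.05 to the 18-library median + 0.05, with vertical lines between control, irradiated and irradiated plus formula libraries. Irradiated plus formula library 2 is high for Il6, Ccl2, Ptgs2 and S100a9 and low for Il10, while irradiated library 4 is high for Il1b, Il6, Il10 and Ccl2 and low for S100a8 and S100a9.

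The biological coefficient of variation in the fit was 155% for Il6, 138% for S100a8, 96.2% for Il10, 89.8% for Ccl2, 81.7% for S100a9, 69.8% for Ptgs2, 69.4% for Il1b and 59.2% for Cxcl1, against a median of 44.4% over all genes tested. Cxcl1 was the least variable, at the 69.2nd percentile of all genes, and Il6 the most, at the 98.2nd. That comparison takes in genes of every level. Set against tested genes with a mean within a factor of 2 in the same group, the coefficient of variation of CPM was above the median of such genes in 19 of 27 cases and at or below it in 8. These cases include Cxcl2, which failed the filter and was set against genes that passed it. Only 21, 16 and 18 such genes were of its level in control, irradiated and irradiated plus formula libraries, so its cases say little. Cxcl1 varied less than its like in irradiated (52.4% against a median of 70.6%) and irradiated plus formula libraries (54.6% against 61.9%). Il10 in irradiated plus formula (38.8% against 67.1%), Il1b in control (35.8% against 44.3%), Ccl2 in control (41.3% against 51.8%) and S100a9 in irradiated libraries (54.5% against 59.7%) were also below, and the remaining ones were Cxcl2 in control (96.6% against 105.7%) and irradiated libraries (126.7% against 128.5%). Ccl2 in irradiated plus formula libraries was far above, at 167% against 26.9%.

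Whether genes varied together from library to library was examined on log2(CPM + 0.5) values centred on their group means, in 36 pairs. S100a8 and S100a9, the calprotectin subunits, gave Pearson's r = 0.75 (permutation p = 0.00012, adjusted 0.00432) and Spearman's rho = 0.82 (permutation p = 0.00016, adjusted 0.00576). Without control library 5 and irradiated library 3, the farthest from the S100a8 median, r was 0.84. Without irradiated plus formula library 2 and irradiated library 4, r was 0.79 and its adjusted permutation p 0.0511. Il6 and Ccl2 gave r = 0.87 (permutation p = 0.00051, adjusted 0.00918) and rho = 0.64 (permutation p = 0.00764, adjusted 0.0917). That r was 0.71 without irradiated plus formula library 2 (adjusted permutation p 0.052). It was 0.51 without that library and irradiated library 4 (adjusted permutation p 0.285), so its size depended on those libraries.

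Ccl2 and Cxcl1 gave rho = 0.72 (permutation p = 0.0021, adjusted 0.0378) and r = 0.68 (permutation p = 0.00499, adjusted 0.056), and r was 0.69 without the same 2 libraries (adjusted permutation p 0.171). The neighbours Cxcl1 and Cxcl2 gave r = 0.46 (adjusted permutation p 0.196) and 0.04 without control library 1 and irradiated plus formula library 2. In all, r was above 0 in 26 of 36 pairs with a median of 0.29, and the lowest was that of Il10 and Ptgs2, r = -0.54 (permutation p = 0.0211, adjusted 0.0844). All libraries carry 1 batch label, so no within-batch value was computed.

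**Figure D5:**
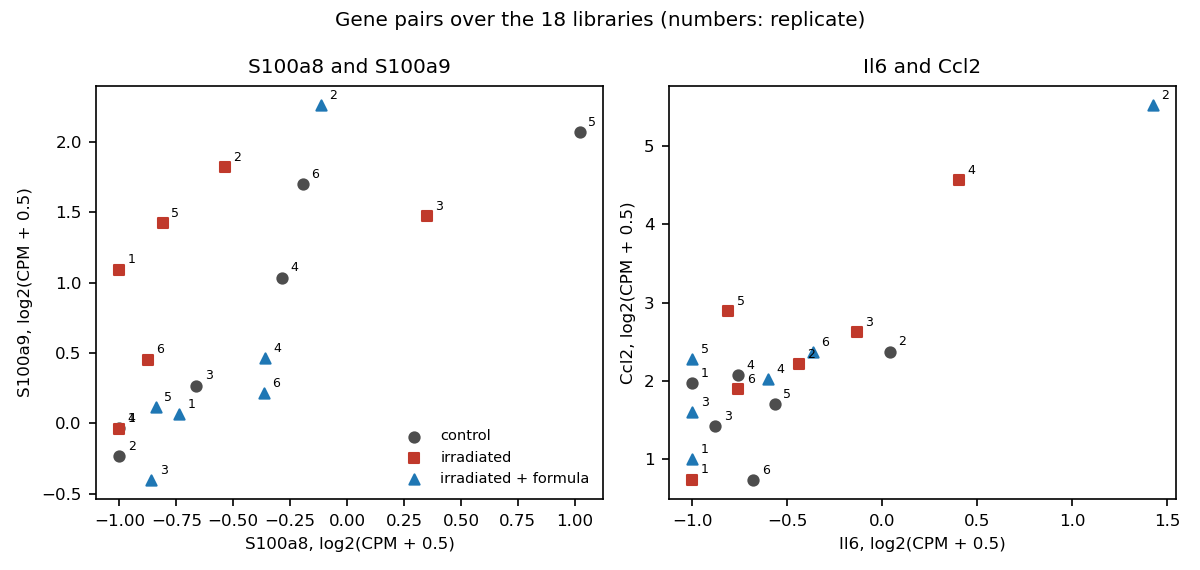
Levels of S100a8 against S100a9 and of Il6 against Ccl2, both axes in log2(CPM + 0.5), with 1 point for each of the 18 libraries numbered by replicate and coloured by group. The calprotectin genes (r = 0.75 after centring on group means) spread along a line through all 3 groups, whereas irradiated library 4 and irradiated plus formula library 2 stand alone at the upper right for Il6 and Ccl2.

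Of the 14363 genes that averaged 1 CPM or more, the one whose log2(CPM + 0.5) values over the 18 libraries were closest to those of Il1b was ENSRNOG00000006767 (chr3:139396850-139405557, plus strand), with r = 0.91. It too was highest in irradiated library 4, at 51.4 CPM against a median of 4.35, and 158 genes had r above 0.8 with Il1b. The closest to S100a9 was ENSRNOG00000006542 (chr10:13196204-13201500, minus strand) with r = 0.78, and 0 genes had r above 0.8. Both are the highest of all genes compared and are given without a test.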

How the data were processed

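Per the file headers, the authors deposited raw read counts per gene, from read pairs aligned to mRatBN7.2, using featureCounts 2.1.1 and the gene models of Ensembl release 110. Both ends had to be aligned, chimeric pairs were left out, and neither pair counting nor strand was set. None of these 9 genes shares exon bases with another. The submitters' processing notes also name FastQC, fastp, STAR and SAMtools. Per the labels' protocols, RNA was poly(A)-selected and primed with random hexamers. No per-sample column went unused (0).

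Counts were tested in R 4.3.3 with edgeR 4.0.16 (filterByExpr, TMM, quasi-likelihood test) in 1 fit of 18 libraries without covariates. Of 30562 genes, 16593 passed the filter, 8 of the 9 genes reported among them. P-values were adjusted by the Benjamini-Hochberg method over all genes tested, with a threshold of 0.05. Standard errors derive from the F statistic, so intervals are approximate. Cxcl2 was compared with an exact permutation test on log2(CPM + 0.5). Correlation p-values come from 100000 permutations within groups. Exon lengths from the table gave RPKM. The edgeR procedure was tested on simulated counts, with changes set for irradiated against control in genes averaging 1 CPM or more. Il6, Il10, Cxcl1, Cxcl2 and S100a8 averaged less, so that test did not cover changes in genes of their level.

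The named genes were those listed by identifier whose chromosome matched, plus 1 gene of most similar pattern each for Il1b and S100a9. Genes and lists were chosen with earlier results of these data known. Lists of related pathway genes and of cell type markers needed symbols and were not used, since 0 identifiers matched the RefSeq gene table. Alternatives were RLE size factors, no filter, a replicate block, DESeq2 1.42.0, limma-voom with quality weights (limma 3.58.1), fits of 12 libraries, each library left out, and 3 libraries that stand apart left out. Leaving out irradiated plus formula library 2 and irradiated library 4 was chosen after seeing the data.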

Additional observations from a re-analysis of the deposited data

Results flagged for a closer look

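In 13 of 27 checks (9 genes in 3 groups) 1 library stood far from the other 5 of its group, each time above them. That is 48.1% of checks, against 19.99% over all genes tested, a share that also counts libraries far below the others. Chance flags about 1 in 20 groups of normally distributed values, but the check was made on CPM without a log scale, so that rate need not hold here. Irradiated plus formula library 2 stood apart for Ccl2 (45.6 CPM), Ptgs2 (53.1 CPM), S100a9 (4.30 CPM), Il6 (2.18 CPM) and Cxcl2 (0.182 CPM). Irradiated library 4 stood apart for Il1b (27.4 CPM), Ccl2 (23.1 CPM) and Il10 (2.85 CPM). Control library 2 stood apart for Il10 (3.24 CPM) and Il6 (0.529 CPM). The other flagged values were Ptgs2 in irradiated library 5 (35.3 CPM), S100a8 in control library 5 (1.53 CPM) and S100a8 in irradiated library 3 (0.775 CPM). No group of Cxcl1 had such a library.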

How the results depend on the processing

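None of the 9 genes passed under the alternatives that gave it an adjusted p. DESeq2 gave none for Cxcl2 and Il10 in all 3 comparisons, nor for Il6, S100a8 and Cxcl1 in irradiated plus formula against control, where the unadjusted p of Cxcl1 was 0.00874. Of all genes tested, 8 passed with DESeq2 for irradiated plus formula against irradiated, against 0 with edgeR. For irradiated plus formula against control 2 genes passed; the count was 47 with DESeq2, 499 with limma-voom, 6 in the fit of 12 libraries, 1 with the replicate block, 7 without control 2, irradiated 1 and irradiated 4, 4 without irradiated plus formula 2 and irradiated 4, and 2 to 5 with 1 library left out (5 without control library 2). Of 18 same-numbered pairs of libraries 5 correlated above 0.1 (range -0.51 to 0.61). Of the 18 libraries 4 were closest to a library of the same number. No value for differently numbered pairs was set beside these, so whether replicate numbers pair the libraries was not settled. Of the 36 gene pairs 2 passed by Pearson's r; 1 passed without the 2 farthest libraries, 4 without the 3 libraries and 0 without irradiated plus formula 2 and irradiated 4.

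Directions turned as follows, as log2 fold changes (for Cxcl2, as the difference in mean log2(CPM + 0.5)), and the cause was not tested. With limma-voom, irradiated against control gave -0.0091 for Il1b, 0.65 for Il10, -0.20 for Ptgs2 and 0.28 for S100a8; irradiated plus formula gave -2.08 for Il6, -0.47 for Ccl2 and -0.31 for Cxcl1 against irradiated, and -0.57 for Il6, 0.17 for Il10 and 0.44 for S100a8 against control. With the replicate block, Il10 was 0.26 for irradiated against control, and Il6 -0.74 and Ccl2 -0.093 for irradiated plus formula against irradiated. For irradiated against control Il10 was 0.013 with RLE factors, 0.0089 with DESeq2 and 0.019 in the fit of 12 libraries. Without control 2, irradiated 1 and irradiated 4, Il1b was -0.093 and Il10 0.36 for irradiated against control, Cxcl1 -0.14, Cxcl2 0.019 and S100a8 -0.47 for irradiated plus formula against irradiated, and Il10 0.20 against control. Without irradiated plus formula 2 and irradiated 4, Il1b was -0.46 for irradiated against control, and Ccl2 -0.35, Cxcl1 -0.20, Ptgs2 -0.12 and S100a8 -0.51 for irradiated plus formula against irradiated.

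With 1 library left out, 14 of 106 values changed sign for irradiated against control, 17 of 106 for irradiated plus formula against irradiated and 5 of 108 against control. For irradiated against control the ranges were -0.46 to 0.69 for Il1b, -1.33 to 1.58 for Il10, -0.082 to 0.013 for Cxcl2, -0.16 to 0.62 for Ptgs2, -2.64 to 0.20 for S100a8 and -0.10 to 0.64 for S100a9. For irradiated plus formula against irradiated they were -1.18 to 0.11 for Il1b, -1.62 to 0.90 for Il6, -1.15 to 1.30 for Ccl2, -0.21 to 0.29 for Cxcl1, -0.072 to 0.040 for Cxcl2 and -0.24 to 1.66 for S100a8. Against control they were -0.85 to 2.29 for Il6, -1.68 to 0.17 for Il10, -0.11 to 0.0048 for Cxcl2, -1.34 to 0.31 for S100a8 and -1.43 to 0.058 for S100a9. Values for Cxcl2 are differences in mean log2(CPM + 0.5), which the offset holds near 0, and cannot be set beside the fitted ones. Il6 and S100a8 failed the filter in some of these fits, and Cxcl2 has no value from DESeq2, limma-voom or the fits of 12 libraries. Median counts per library of 2 for Cxcl2, 4 for Il6, 5 for S100a8, 11 for Il10 and 12 for Cxcl1 limit the precision of these genes.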

Other observations

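The correlation of several gene pairs, on values centred on the group means, depended on which libraries were kept. Il6 and S100a9 gave r = 0.79 without control 2, irradiated 1 and irradiated 4 (adjusted permutation p 0.0108), but 0.38 over all 18 libraries, -0.19 without irradiated plus formula library 2 and 0.11 without that library and irradiated 4. Il6 and S100a8 gave r = 0.52 without the same 3 libraries (adjusted permutation p 0.00036), 0.28 over all 18 and 0.17 without irradiated plus formula library 2. Cxcl2 and S100a9 gave r = -0.77 without irradiated plus formula library 2 (adjusted permutation p 0.0398), -0.19 over all 18 and -0.10 without the 3 libraries. Il1b and Il10 gave r = 0.67 without irradiated plus formula library 2 (adjusted permutation p 0.038), 0.63 over all 18, 0.39 when irradiated 4 was also left out (adjusted permutation p 0.26) and 0.20 without the 3 libraries. Cxcl2 had at most 8 reads in any library.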
